A study of Mus musculus with 6 samples.

Results

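The C1qtnf genes encode the C1q/TNF-related proteins (CTRPs), secreted relatives of the hormone adiponectin. The 8 members described here, C1qtnf1 to C1qtnf7 and C1qtnf12, were taken from the deposited count table by matching its mouse Ensembl identifiers to these symbols, and all 8 of them were found among its 55414 identifiers. The family was selected on the measured siUsf2 and siControl levels, with C1qtnf3 as its abundant and lower member. The levels of the members in these libraries are therefore given as a description, and the calls that the fit over all genes made on them support nothing.

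Most CTRPs carry a signal peptide, a collagen-like stalk and a globular C1q domain at the carboxyl end, and they assemble into trimers and larger multimers before secretion. The family is best known from adipose tissue, where adiponectin acts through the receptors ADIPOR1 and ADIPOR2, but many CTRPs are also made by muscle, cartilage and stromal cells. CTRP3, also called cartducin, was described in mouse growth cartilage and lowers glucose output of the liver in mice. USF2, the factor targeted in the study, is a basic helix-loop-helix leucine zipper protein that binds E-box sequences.

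RNA was sequenced from C2C12 cells, a mouse myoblast line that differentiates into myotubes, kept in serum-containing growth medium. All cells had the label WT for genotype and all were transfected by lipofection: 3 libraries (siUsf2 1 to 3) came from cells given siRNA against Usf2 and 3 (siControl 1 to 3) from cells given the negative control siRNA. None of the sources used here gives the time after transfection, the number of siRNA sequences or whether replicates were separate cultures, so the replicate spread behind the p-values may be only technical. All libraries are of 1 cell line. In such bulk RNA, fewer cells of a type and less RNA per cell cannot be told apart.

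The library labelled siUsf2 3 stood apart from the other 5 and is shown separately throughout. It held 3414565 counts, against 14932880 to 15817183 in siUsf2 1 and 2 and 14790997 to 17715250 in siControl, and detected 17404 genes, against 23515 to 24501 in the other libraries. Pseudogenes took 0.974% of its counts and 14.0% to 15.3% elsewhere, and ribosomal protein genes 2.87% of its counts and 0.337% to 0.417% elsewhere. Usf2 itself was at 17.1 and 15.3 CPM (counts scaled by the library total) in siUsf2 1 and 2, at 30.8 CPM in the library labelled siUsf2 3, and at 23.0 to 31.2 CPM in siControl. In CPM, the Usf2 level of siUsf2 3 therefore goes against its label. Usf1, which encodes a related factor, was at 68.8 CPM in siUsf2 3, against 24.8 and 28.4 CPM in siUsf2 1 and 2. The siControl values of Usf1 were 26.0 to 35.6 CPM. Whether the different makeup of siUsf2 3 raised both genes in CPM was not tested. Without siUsf2 3, Usf2 fell by 0.74 on the log2 scale (SE 0.14, adjusted p by edgeR 0.000643). Over all 6 libraries the log2 fold change of Usf2 was -0.40 (SE 0.28, adjusted p by edgeR 0.702).

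The promoter windows show which E-boxes lie near the RefSeq starts of these genes. RefSeq windows of 300 bases (GRCm38.p6, from 250 bases before to 50 after the start) were matched for 5 of the 8 members, C1qtnf2, C1qtnf3, C1qtnf5, C1qtnf6 and C1qtnf7. The windows below are those of C1qtnf3, the member that was lower, of C1qtnf6, the next in level, and of C1qtnf2, the 1 of these 5 whose window held CACGTG, the E-box that USF proteins bind. They are written 5′ to 3′ on the strand of the gene, at chr15:10952082-10952381 (plus strand), chr15:78529602-78529901 (minus strand) and chr11:43474056-43474355 (plus strand), with every match to the general E-box CANNTG in capitals.
C1qtnf3: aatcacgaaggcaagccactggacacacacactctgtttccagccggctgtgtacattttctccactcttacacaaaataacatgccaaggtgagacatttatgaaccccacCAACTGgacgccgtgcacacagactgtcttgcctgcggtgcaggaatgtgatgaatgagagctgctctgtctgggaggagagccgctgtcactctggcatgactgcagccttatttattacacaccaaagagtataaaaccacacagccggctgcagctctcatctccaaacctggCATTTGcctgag
C1qtnf6: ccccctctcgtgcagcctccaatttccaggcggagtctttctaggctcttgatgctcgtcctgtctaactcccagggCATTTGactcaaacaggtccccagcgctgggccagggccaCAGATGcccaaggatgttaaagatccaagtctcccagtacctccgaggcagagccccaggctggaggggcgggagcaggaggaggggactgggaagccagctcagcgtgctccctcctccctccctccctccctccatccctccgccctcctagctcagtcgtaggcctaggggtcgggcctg
C1qtnf2: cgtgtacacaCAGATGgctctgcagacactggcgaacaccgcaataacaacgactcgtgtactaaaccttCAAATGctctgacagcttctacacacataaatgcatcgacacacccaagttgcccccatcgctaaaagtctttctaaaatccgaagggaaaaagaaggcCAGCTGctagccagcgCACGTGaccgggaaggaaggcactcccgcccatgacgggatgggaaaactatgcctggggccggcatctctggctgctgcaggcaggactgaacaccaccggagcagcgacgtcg

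The 3 motifs searched were CACGTG, the E-box of myogenic factors such as MyoD, which is CAGCTG, and the general CANNTG. All 3 read the same on both strands, and the general motif includes the other 2. The C1qtnf3 window held no CACGTG and no CAGCTG. Its CANNTG matches were CAACTG, which began 138 bases before the start, and CATTTG, 38 bases after it. The C1qtnf6 window held CATTTG and CAGATG, 173 and 133 bases before the start. In C1qtnf2, CACGTG began 65 bases and CAGCTG 81 bases before the start, with 4 CANNTG matches in all. All 5 windows held a CANNTG, as did 72.3% of the 32851 promoter windows in the table. CACGTG was in 7.15% and CAGCTG in 16.3% of them. A match is a description of letters and not a binding site, and its absence says only that these letters are not in this window. The window listed for C1qtnf5 lies at the start of Mfrp, and the final bases of the C1qtnf5 and C1qtnf6 windows were not found in a GENCODE transcript of those genes. The C1qtnf6 window (78529602 to 78529901) lies inside the GENCODE gene, which runs from 78523346 to 78531416 on the minus strand. Its E-box positions therefore count from a RefSeq start inside that gene and not from the GENCODE start.

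**Figure D1:**
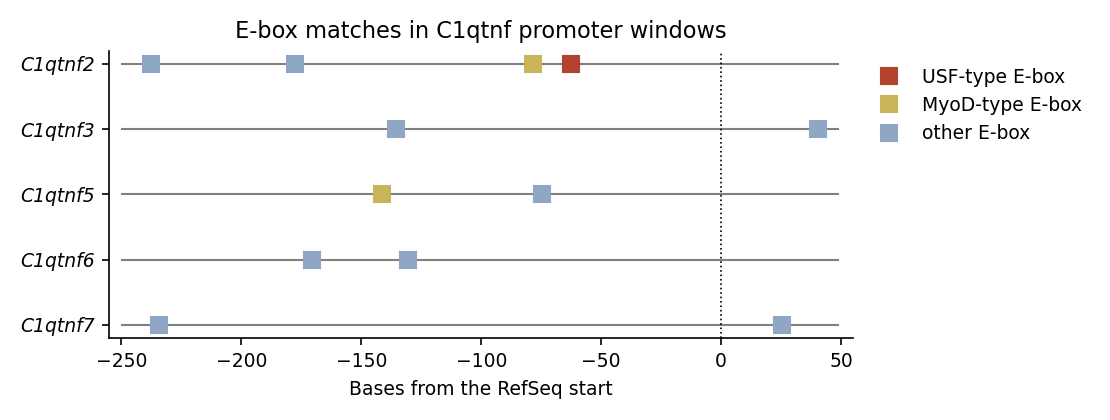
Positions of E-box matches (squares) in the promoter windows of the 5 members matched in RefSeq, in bases from the RefSeq start (dotted line). Red marks the USF-type E-box, yellow the MyoD-type E-box and blue any other; the USF-type match is in C1qtnf2, and C1qtnf3 has blue matches at -138 and 38.

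C1qtnf3 (ENSMUSG00000058914) lies on chromosome 15 at 10952332 to 10980150 (GRCm38, plus strand, 6 exons in its longest transcript). It was at 173, 157 and 160 CPM in siUsf2 1 to 3, from 2732, 2349 and 545 counts, against 401, 412 and 456 CPM in siControl 1 to 3, from 5930, 6589 and 8080 counts. Every siUsf2 library lay below every siControl library. The 95% Poisson interval of the shallow library siUsf2 3 ran from 146 to 174 CPM, which takes in both other siUsf2 values and ends well under the lowest siControl interval of 391 to 411 CPM. Per length, C1qtnf3 averaged 63.8 ± 3.25 RPKM (CPM per kilobase of exon) in siUsf2 and 165 ± 11.4 RPKM in siControl (SD, n = 3 each).

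Relative to the siControl mean, the level of C1qtnf3 was 40.8% and 37.2% in siUsf2 1 and 2 and 37.7% in siUsf2 3. Usf2 was at 63.7%, 57.2% and 115% of its siControl mean in the same libraries. In CPM, C1qtnf3 was thus as low in the library whose Usf2 level was within the siControl range as in the other siUsf2 libraries. Usf1 was higher in that library too, as given above. Whether the makeup of that library changed its Usf2 CPM was not tested, and the extent of knockdown there is not known. The fitted log2 fold change of C1qtnf3 was -1.37 (SE 0.09) without siUsf2 3 and -1.41 (SE 0.09) with all 6 libraries. This contrast chose the gene, so these values describe it and support nothing further.

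C1qtnf6 (ENSMUSG00000022440; chromosome 15, 78523346 to 78531416, minus strand, 3 exons) encodes CTRP6, an inhibitor of the alternative complement pathway in mice. It was at 132, 133 and 122 CPM in siUsf2 1 to 3 (2088, 1983 and 416 counts), against 149, 140 and 136 CPM in siControl 1 to 3 (2198, 2235 and 2401 counts). The groups did not overlap, but the gap between the highest siUsf2 and the lowest siControl library was smaller than the counting interval of either (127 to 139 CPM in siUsf2 2 and 130 to 141 CPM in siControl 3). The log2 fold change was -0.11 (SE 0.09) without siUsf2 3 and -0.16 (SE 0.09) with it. Per length its level was 47.7 ± 2.26 RPKM in siUsf2 and 52.3 ± 2.47 RPKM in siControl (SD, n = 3 each).

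C1qtnf1 (ENSMUSG00000017446; chromosome 11, 118428203 to 118449963, plus strand, 4 exons) encodes CTRP1, a secreted protein of vascular and stromal cells and of adipose tissue. It was at 88.7, 85.2 and 77.0 CPM in siUsf2 1 to 3 (1403, 1273 and 263 counts), against 87.1, 82.9 and 86.3 CPM in siControl 1 to 3 (1288, 1327 and 1528 counts). The groups overlapped, with the lowest value in siUsf2 3. The log2 fold change was 0.01 (SE 0.09) without that library and -0.06 (SE 0.10) with it, each smaller than its error, and the sign turned between them. The RPKM values were 26.7 ± 1.92 in siUsf2 and 27.3 ± 0.706 in siControl (SD, n = 3 each).

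C1qtnf12 (ENSMUSG00000023571; chromosome 4, 155962318 to 155966629, plus strand, 8 exons) encodes adipolin, an insulin-sensitizing hormone of mouse adipose tissue. It was at 9.29, 6.90 and 18.7 CPM in siUsf2 1 to 3 (147, 103 and 64 counts), against 8.72, 9.37 and 8.41 CPM in siControl 1 to 3 (129, 150 and 149 counts). The library siUsf2 3 was above all others, with an interval of 14.4 to 23.9 CPM, while siUsf2 1 and 2 lay around the siControl values. Depth, the shares of pseudogenes and ribosomal protein genes and the Usf2 level also set that library apart, as given above, and their part in this value was not tested. The log2 fold change was -0.14 (SE 0.20) without siUsf2 3 and 0.33 (SE 0.37) with it, so the direction rests on 1 library. Its RPKM was 8.52 ± 4.58 in siUsf2 and 6.47 ± 0.359 in siControl (SD, n = 3 each).

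**Figure D2:**
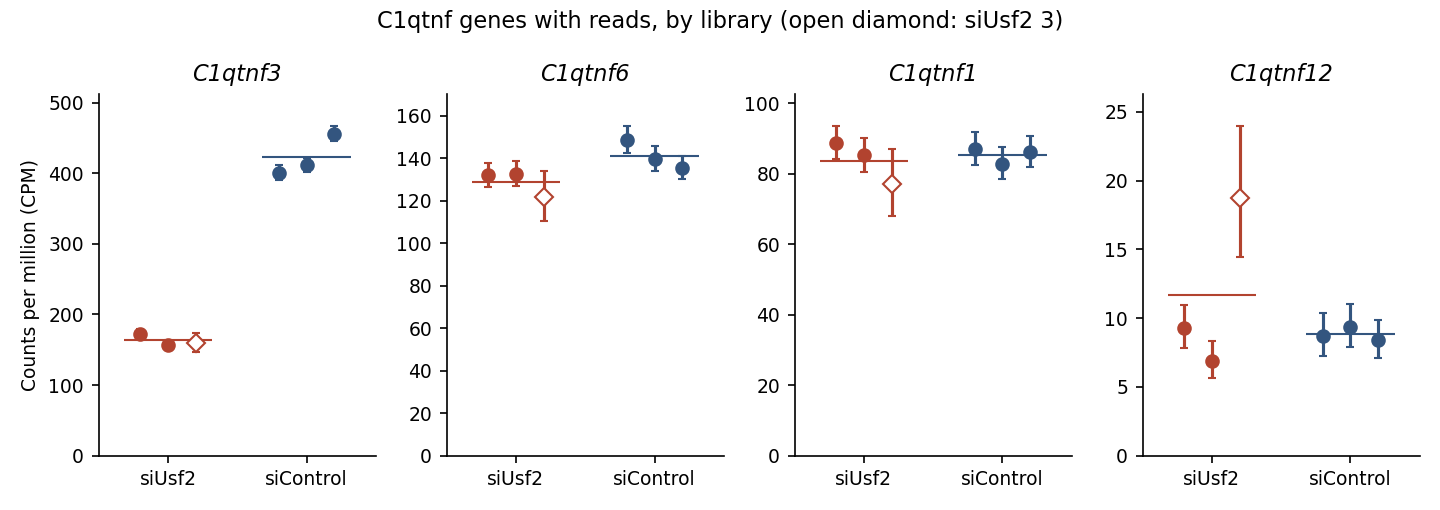
Level in CPM of the 4 members with more than 3 counts, 1 point per library with its exact Poisson 95% interval, siUsf2 on the left and siControl on the right. Horizontal lines are group means over 3 libraries and the open diamond is siUsf2 3. C1qtnf3 sits at 157 to 173 CPM in siUsf2 and at 401 to 456 CPM in siControl, while C1qtnf12 is high in siUsf2 3, at 18.7 CPM.

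The other 4 members had next to no reads. C1qtnf2, which encodes a close relative of adiponectin, had 0 counts in each siUsf2 library and 2, 1 and 0 counts in siControl 1 to 3. C1qtnf4, whose protein has a pair of C1q domains and no collagen stalk, had 1 count in siUsf2 3 and 0 in every other library. C1qtnf5 and C1qtnf7 were at 0 in all 6 libraries. A count of 0 allows up to 0.190 and 0.201 CPM in siUsf2 1 and 2, 0.879 CPM in siUsf2 3 and 0.169 to 0.203 CPM in siControl (3 counts). Where the count was 0, a level below these limits cannot be told from none at this depth. C1qtnf2 and C1qtnf4 had at most 2 counts in any library. No difference between groups can be read from these 4 members. C1qtnf5 overlaps Mfrp, which encodes a membrane frizzled-related protein, on the same strand: 100% of its 1589 exon bases are also Mfrp exon, and Mfrp held 47 counts over all libraries. None of the sources used here says how the authors' counting treated shared exons, so a count of 0 for C1qtnf5 and reads left out or assigned to Mfrp cannot be told apart.

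Sequence shared with other genes was rare in the measured members. No stretch of 50 bases in the annotated transcripts of C1qtnf3, C1qtnf6 or C1qtnf12 occurred in a transcript of any other gene, and no member shared such a stretch with another member. For C1qtnf1 the share was 0.902% of its stretches of 50 bases. Its exons overlap the antisense gene Gm11747 in 642 of 3131 bases and those of C1qtnf6 overlap the antisense gene Gm49490 in 117 of 2702 bases, with 8 and 24 counts on these partners over all libraries. The strand setting of the counting is not given, so a small antisense part of C1qtnf1 and C1qtnf6 counts cannot be told apart.

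The order of the measured members per length was C1qtnf3, C1qtnf6, C1qtnf1 and C1qtnf12 in all 6 libraries, and neighbours in that order did not overlap in RPKM within a group. C1qtnf3 and C1qtnf6 came closest in siUsf2, where C1qtnf3 was 1.38, 1.25 and 1.38 times C1qtnf6 in RPKM in siUsf2 1 to 3, against 2.85, 3.12 and 3.56 times in siControl 1 to 3. Such a ratio within a library does not depend on its total count. Among protein-coding genes ranked by RPKM, C1qtnf3 was 371st, 431st and 652nd in siUsf2 1 to 3 and 116th, 118th and 97th in siControl 1 to 3. C1qtnf6 held rank 562, 570 and 987 in siUsf2 1 to 3 and 537, 601 and 579 in siControl 1 to 3. The rank of C1qtnf3 in siUsf2 3 does not reflect a lower level, since its RPKM there was 62.4, against 67.5 and 61.5 in siUsf2 1 and 2. Ranks in that library are therefore not comparable with the others.

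The makeup of the family differed between the groups. C1qtnf3 gave 42.9%, 41.2% and 42.3% of all C1qtnf counts in siUsf2 1 to 3, against 62.1%, 64.0% and 66.5% in siControl 1 to 3. The 95% Wilson interval of siUsf2 3 was 39.6% to 45.0%. C1qtnf6 gave 32.3% to 34.7% in siUsf2 and 19.7% to 23.0% in siControl, and C1qtnf1 gave 20.4% to 22.3% in siUsf2 and 12.6% to 13.5% in siControl. These shares are tied to each other, since a smaller share of C1qtnf3 leaves larger shares for the rest.

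**Figure D3:**
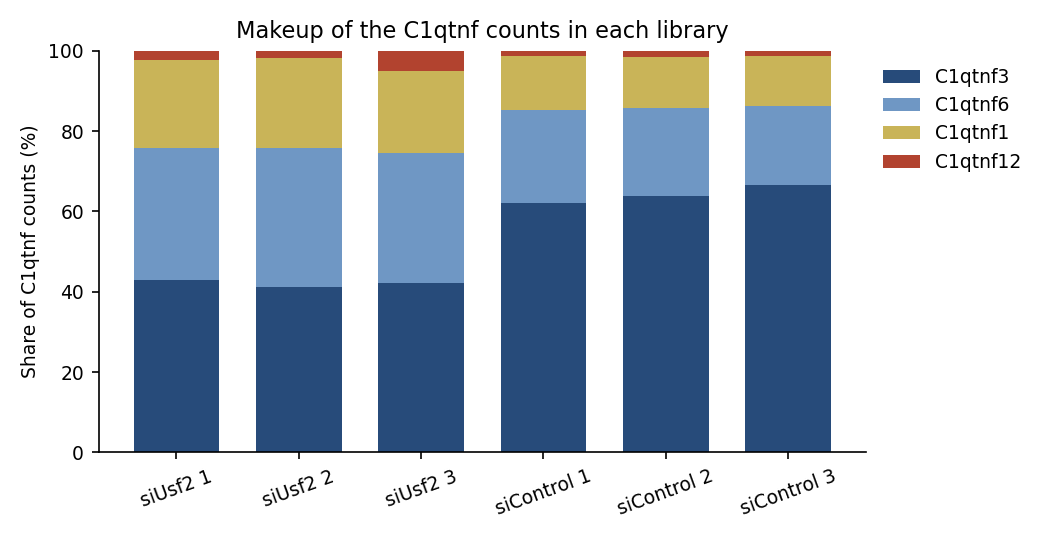
Share of each measured member in the summed counts of the 8 C1qtnf genes, in percent, for each siUsf2 and siControl library. The share of C1qtnf3 is 41.2% to 42.9% in the 3 siUsf2 libraries and 62.1% to 66.5% in the 3 siControl libraries.

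Of the 8 members, 4 passed the filter on low counts. In the fit over all genes edgeR called 1 of these 4, C1qtnf3, lower at an adjusted p below 0.05, both with all 6 libraries, where 0.042% of the 16662 genes tested were called, and without siUsf2 3, where 11.4% of 17217 were (6.4% lower). With 6 libraries the call was lost when siUsf2 1, siUsf2 2 or any 1 of the siControl libraries was left out, and no gene at all was then called. Groups did not overlap, with siUsf2 lower, for 2 of the 4 in either comparison, against 11.2% of all tested genes with 6 libraries and 19.5% with 5. The family was picked with this contrast known, so nothing is read from these counts. The median log2 fold change of the 4 was -0.12 without siUsf2 3 and -0.11 with it, and over all tested genes it was -0.01 in each.

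Other proteins with a C1q domain were mostly unmeasured. Of 22 listed, 8 were tested without siUsf2 3, of which 3 rose, 0 fell and 5 did not pass, with a median log2 fold change of 0.36 (4.97% of all tested genes rose; DESeq2 called 2, both higher). Col8a1, a network-forming collagen of vessel walls and the cornea, rose by 0.42 on the log2 scale (SE 0.09, adjusted p by edgeR 0.00182). It was at 139, 133 and 124 CPM in siUsf2 1 to 3, against 102, 93.3 and 106 CPM in siControl 1 to 3. All siUsf2 libraries were thus above all siControl libraries, as for 11.4% of all genes tested with 6 libraries. Emilin2, an elastic-fibre glycoprotein, rose by 0.41 (SE 0.09, adjusted p by edgeR 0.00287), and Caprin2, an RNA-binding protein, by 0.50 (SE 0.16, adjusted p by edgeR 0.0377). Emilin1 had a log2 fold change of -0.20 (SE 0.10, adjusted p by edgeR 0.206).

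The 3 calls without siUsf2 3 became 2 when siControl 1 or siControl 2 was also left out. Over all genes edgeR then called 1055 of 17009 and 1144 of 16944, against 1957 of 17217. When siControl 3 was left out instead they became 4, 3 higher and 1 lower, where 3560 of 16924 genes were called. Leaving out siUsf2 1 or siUsf2 2 as well as siUsf2 3 left a lone siUsf2 library, and fewer genes of the list then passed. With all 6 libraries edgeR called no gene of that list (6 tested, 2 with an unadjusted p below 0.05, 1 called by DESeq2). Adipoq, which encodes adiponectin, had 0 to 3 counts per library, and C1qa, C1qb and C1qc, the subunits of complement C1q, had none. C1qtnf9, a C1qtnf gene outside the 8 members, had 0 to 5 counts.

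Genes for receptors and processing of adiponectin-like hormones did not pass the test. Of 10 listed, 9 were tested without siUsf2 3 and 8 with it. Both edgeR and DESeq2 called none in either comparison (2 and 0 had an unadjusted p below 0.05). The median log2 fold changes were -0.02 and -0.05. Over all tested genes edgeR called 11.4% without siUsf2 3 and 0.042% with it, so none among so few genes is near that share. Without siControl 3, however, edgeR called 3 of the listed genes in the comparison that also leaves out siUsf2 3. There it called 3560 of all 16924 genes tested. Adipor1 was at 182, 187 and 217 CPM in siUsf2 1 to 3 and at 177 to 192 CPM in siControl, and Adipor2 at 97.7, 92.0 and 90.5 CPM in siUsf2 1 to 3 and at 93.2 to 97.4 CPM in siControl. Without siUsf2 3 the log2 fold change was -0.28 (SE 0.12) for Pcsk7 and -0.17 (SE 0.09) for Furin, proprotein convertases, 0.18 (SE 0.09) for Cdh13, the adiponectin-binding T-cadherin, and 0.12 (SE 0.10) for Appl1, an adaptor of adiponectin receptors. Their edgeR adjusted p values were 0.119, 0.239, 0.197 and 0.486.

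Of 12 listed genes that modify and fold collagen-domain proteins in the endoplasmic reticulum, 11 were tested without siUsf2 3, of which 5 rose, 0 fell and 6 did not pass, with a median log2 fold change of 0.18 (4.97% of all tested genes rose; DESeq2 called 4, all higher). Ero1l, an oxidase for disulphide bonds, rose by 0.43 (SE 0.09, adjusted p by edgeR 0.00212), and it was at 87.2, 91.7 and 86.7 CPM in siUsf2 1 to 3, against 62.7, 67.7 and 67.6 CPM in siControl 1 to 3. Its siUsf2 values were all above its siControl values, as for 11.4% of all genes tested with 6 libraries. The prolyl hydroxylase subunits P4ha2 and P4ha3 rose by 0.43 (SE 0.10, adjusted p by edgeR 0.00464) and 0.38 (SE 0.11, adjusted p by edgeR 0.0215), and the lysyl hydroxylase Plod2 by 0.35 (SE 0.09, adjusted p by edgeR 0.00871). With all 6 libraries edgeR called none of 11 (4 with an unadjusted p below 0.05, 2 called higher by DESeq2). The 5 calls without siUsf2 3 became 3 when siControl 1 or siControl 2 was also left out. Over all genes edgeR then called 1055 of 17009 and 1144 of 16944, against 1957 of 17217. When siControl 3 was left out instead they became 7, 6 higher and 1 lower, where 3560 of 16924 genes were called. Leaving out siUsf2 1 or siUsf2 2 as well as siUsf2 3 left a lone siUsf2 library, and fewer genes of the list then passed.

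**Figure D4:**
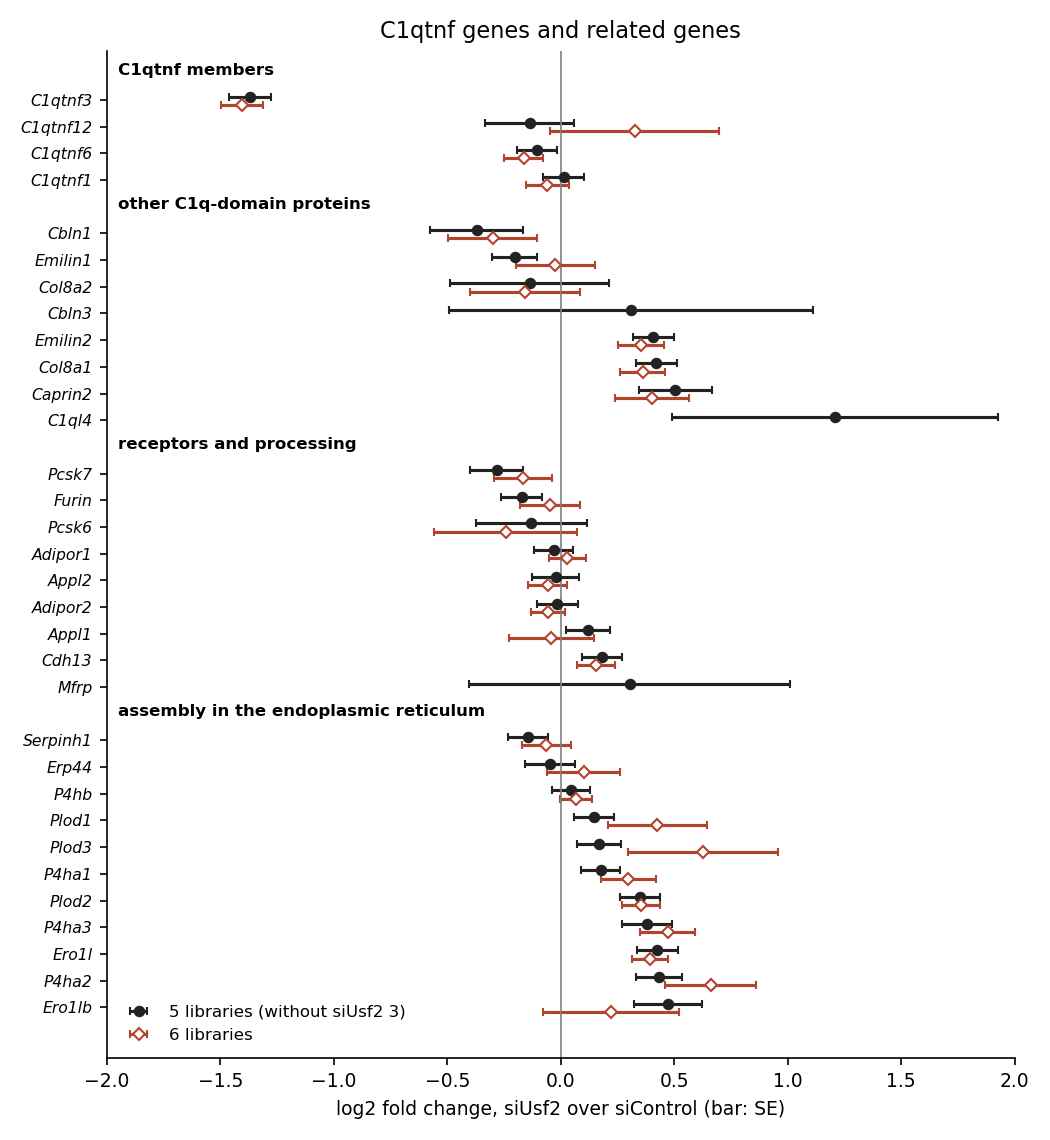
Log2 fold change of siUsf2 over siControl with its standard error for the tested C1qtnf members and 3 groups of related genes, without siUsf2 3 (filled circles) and with all 6 libraries (open diamonds). C1qtnf3 lies at -1.37 and -1.41, the receptor and processing genes lie around 0, and C1qtnf12 changes side between the fits (-0.14 and 0.33).

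Of 18 other secreted factors of muscle cells, 16 were tested without siUsf2 3, of which 2 rose, 4 fell and 10 did not pass, with a median log2 fold change of -0.01 (4.97% of all tested genes rose and 6.4% fell). Fgf21, a metabolic stress hormone, was at 43.4, 55.2 and 112 CPM in siUsf2 1 to 3, against 147, 164 and 130 CPM in siControl 1 to 3 (log2 fold change without siUsf2 3 -1.59, SE 0.11, adjusted p by edgeR 1.45e-10). Fndc5, the precursor of irisin, fell by 1.38 (SE 0.25, adjusted p by edgeR 0.000326). Apln, the ligand of the apelin receptor, rose by 0.99 (SE 0.12, adjusted p by edgeR 5.22e-07) and Fstl1, a follistatin-like glycoprotein, by 0.40 (SE 0.09, adjusted p by edgeR 0.00167). With all 6 libraries edgeR called none of 16 (5 with an unadjusted p below 0.05, and by DESeq2 2 were higher and 1 lower). The 6 calls without siUsf2 3 became 4 without siControl 1, 5 without siControl 2 and 5 without siControl 3. Over all genes 1957 calls became 1055, 1144 and 3560 in these fits. Leaving out siUsf2 1 or siUsf2 2 as well as siUsf2 3 left a lone siUsf2 library, and fewer genes of the list then passed.

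The cells carried the markers of the muscle lineage, and most defining markers of chondrocytes and adipocytes were at or near 0. All 7 muscle markers exceeded 1 CPM, and their summed level was 2276 to 2442 CPM in siUsf2 1 and 2, 3557 CPM in siUsf2 3 and 5294 to 5626 CPM in siControl. Without siUsf2 3, 6 of the 7 fell and 1 rose by edgeR, where 6.4% of all tested genes fell and 4.97% rose. With all 6 libraries none of the 7 was called, against 0.042% of all tested genes (4 with an unadjusted p below 0.05; DESeq2 gave 3 lower). Like C1qtnf3, the sum of this list was lower in every siUsf2 library than in any siControl library, and its part in the C1qtnf3 level was not tested. Myog, Acta1, Myh3 and Cdh15 did not overlap and were lower in siUsf2, Myod1 and Des overlapped, and Myf5 was higher in every siUsf2 library. Of all genes tested with 6 libraries, 11.2% did not overlap and were lower and 11.4% higher. Without siUsf2 3 the log2 fold change was -3.20 for Myh3, -2.09 for Acta1, -1.77 for Myog and -0.75 for Cdh15. It was -0.35 for Des, -0.29 for Myod1 and 0.37 for Myf5. Of 5 chondrocyte markers, Sox9 alone exceeded 1 CPM in a library, Col2a1, Acan and Matn1 were at or near 0, and the sum was 122 to 129 CPM in siUsf2 1 and 2, 114 CPM in siUsf2 3 and 119 to 131 CPM in siControl.

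Of 6 adipocyte markers, 2 exceeded 1 CPM in a library (Cebpa and Fabp4), Lep was at 0, and the sum was 76.2 to 81.9 CPM in siUsf2 1 and 2, 130 CPM in siUsf2 3 and 79.9 to 95.3 CPM in siControl. Of 5 fibroblast markers 3 exceeded 1 CPM, with sums of 491 to 497, 1054 and 414 to 432 CPM in siUsf2 1 and 2, siUsf2 3 and siControl. Of 5 macrophage markers, Cd68 exceeded 1 CPM, Adgre1 and Itgam were at 0, and the sum was at most 2.85 CPM in siUsf2 and 3.37 CPM in siControl.

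The genes beside the members were measured too, which the choice of members did not use. Of 16 nearest protein-coding neighbours, 14 were tested without siUsf2 3, of which 1 rose, 3 fell and 10 did not pass, where 4.97% of all tested genes rose and 6.4% fell (by DESeq2 1 neighbour was higher and 2 lower). Amacr, a racemase of branched-chain fatty acid breakdown, starts 1605 bases after the end of C1qtnf3 on the same strand. It was at 55.2, 54.6 and 61.5 CPM in siUsf2 1 to 3, against 72.5, 86.3 and 64.0 CPM in siControl 1 to 3. All siUsf2 values of Amacr lay below all its siControl values, as for 11.2% of all genes tested with 6 libraries. Without siUsf2 3 it fell by 0.45 on the log2 scale (SE 0.11, adjusted p by edgeR 0.00638); with all 6 libraries it did not pass (log2 fold change -0.41, SE 0.12, adjusted p by edgeR 0.321). Rai14, an actin-associated ankyrin-repeat protein 237707 bases before C1qtnf3, had a log2 fold change of 0.23 (SE 0.09, adjusted p by edgeR 0.0878).

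Of the other neighbours, Mcam, a cell adhesion molecule beside C1qtnf5, rose by 0.96 (SE 0.17, adjusted p by edgeR 0.000244). Engase, a glycan-cleaving enzyme beside C1qtnf1, fell by 1.19 (SE 0.30, adjusted p by edgeR 0.00806) and B3galt6, a galactosyltransferase beside C1qtnf12, fell by 0.57 (SE 0.18, adjusted p by edgeR 0.0406). With all 6 libraries edgeR called none of the 14 (5 with an unadjusted p below 0.05, 1 called higher by DESeq2).

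The 5 genes most like C1qtnf3 in pattern were ranked by Pearson correlation of log2 CPM over the 6 libraries among 9143 genes with a mean of at least 10 CPM. They were Rnf217, a RING-type ubiquitin ligase (r = 0.998), Klhl31, a kelch protein of skeletal muscle (r = 0.998), Tmem182, a membrane protein of muscle (r = 0.993), Tor3a, a torsin ATPase (r = 0.993), and Amotl2, an angiomotin-family protein (r = 0.992). These values describe 6 libraries in 2 groups, whose points share their treatment, and 151 genes reached a correlation of 0.95. Klhl31 was at 8.28, 8.10 and 7.32 CPM in siUsf2 1 to 3, against 20.6, 20.6 and 24.2 CPM in siControl 1 to 3. Tmem182 was at 10.6, 8.71 and 11.4 CPM in siUsf2 1 to 3, against 42.2, 46.1 and 53.1 CPM in siControl 1 to 3.

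A correlation does not show the size of a difference: Amotl2, at 250, 247 and 264 CPM in siUsf2 1 to 3 and 270, 277 and 275 CPM in siControl 1 to 3, had a log2 fold change of -0.15 without siUsf2 3 (SE 0.08, adjusted p by edgeR 0.256). Without siUsf2 3, 2 of the 5 genes were still among the closest 5.

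**Figure D5:**
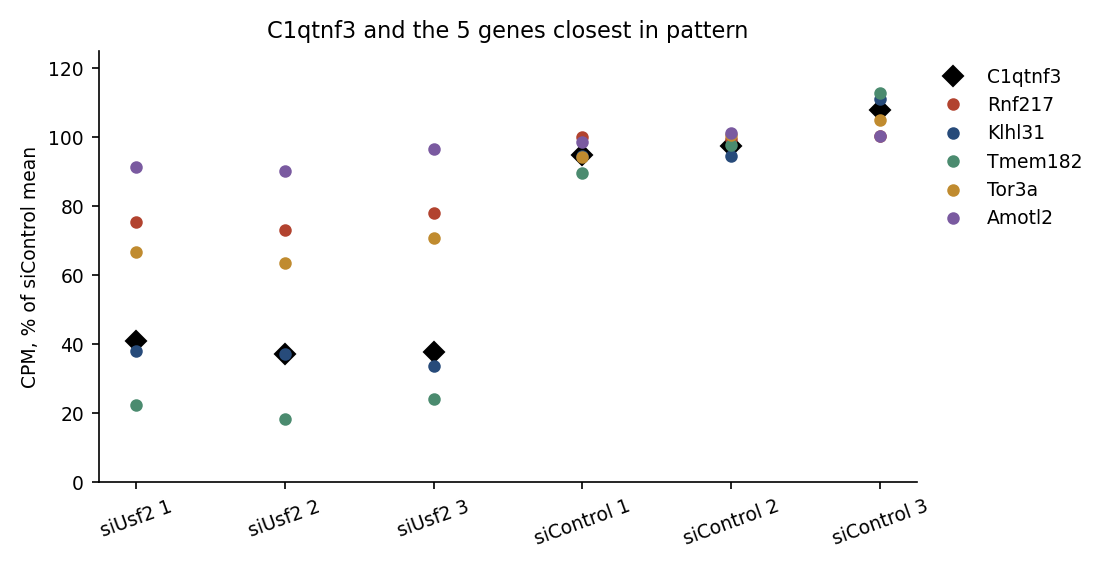
Level of C1qtnf3 (black diamonds) and of the 5 genes closest in pattern (circles) in each library, as CPM in percent of the siControl mean of that gene. C1qtnf3 is at 37.2% to 40.8% in the 3 siUsf2 libraries; the other genes are also lower there, by different amounts.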

How the data were processed

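The deposited table holds whole-number read counts per Ensembl gene for 6 libraries, 1 column each, not normalized by the authors. Per the submitters' processing notes, the named tools are HISAT2, featureCounts, Trimmomatic, FastQC and DESeq2, and the named build is mm10; none of the sources used here gives versions, the strand setting or the annotation. A second table holds the same counts as CPM and was not used. Symbols, exons and coordinates came from GENCODE M21 (GRCm38, which is mm10), where 52081 of 55414 identifiers were found. CPM used column totals and RPKM the union of exons.

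siUsf2 was compared with siControl in edgeR 4.0.16 (R 4.3.3): filterByExpr, TMM, robust quasi-likelihood test, two-sided, Benjamini-Hochberg adjustment over all genes tested, called below 0.05; once with all 6 libraries and once without siUsf2 3. Alternatives were RLE or library-size scaling, no filter, DESeq2 1.42.0, a replicate block and leaving out each library. The procedure was tested on simulated counts with a common dispersion for all genes. No simulated library had a makeup of its own as siUsf2 3 has, so the test does not cover that library. Intervals and zero limits cover counting error only. Genes named are all members, Usf2, up to 4 genes per list by p without siUsf2 3, the nearest and overlapping genes, and the 5 genes most like C1qtnf3 (prior count 2, no predicted gene models). Usf1, and other genes named inside a list, were chosen after their values were seen. The members and lists were chosen with earlier results of these data known.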

Additional observations from a re-analysis of the deposited data

How the results depend on the processing

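The log2 fold change of C1qtnf3 kept its sign under every alternative run. With all 6 libraries it ran from -1.43 without a filter to -1.37 with library-size scaling. Leaving out 1 library gave -1.45 to -1.34. Without siUsf2 3 it ran from -1.43 to -1.30, fits with a further library left out among them. With all 6 libraries it was called in the main fit, with RLE or library-size scaling, without a filter and by DESeq2, and not with the replicate block. When 1 of the 6 libraries was left out, it was called only without siUsf2 3. Without siUsf2 3 it was called in each setting that kept siUsf2 1 and 2. The gene was selected on this contrast, so these calls describe the fits and are no support for the difference. C1qtnf6 stayed between -0.20 and -0.07, while C1qtnf1 and C1qtnf12 turned sign between settings. With 6 libraries the 7 genes called became 4 with RLE scaling, 3 with library-size scaling, 116 without a filter, 706 with DESeq2 (296 higher, 410 lower), and 0 with the replicate block (874 at an unadjusted p below 0.05); leaving out a library gave 0 to 1957, the last without siUsf2 3. Without siUsf2 3 the 1957 called became 3989 with the replicate block, 4 of the receptor and processing genes among them, and 868 to 3560 with a further library left out, where a lone siUsf2 library is assumed to vary like siControl.

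The replicate numbers are not said to pair cultures. Deviations from the group mean correlated at -0.07, -0.0049 and -0.07 for same-numbered libraries. Each siUsf2 library correlated best with a siControl library of another number. With siControl 1, siUsf2 1 and 2 both correlated at -0.07 and siUsf2 3 at 0.07. As siUsf2 3 stands apart, it dominates the siUsf2 deviations, so this check cannot tell paired from unpaired cultures. With the longest transcript as length, C1qtnf3 was at 69.8 RPKM in siUsf2 and 181 RPKM in siControl. Without siUsf2 3, 2 of the 5 genes most like C1qtnf3 remained. Counting error limits C1qtnf12 in siUsf2 3 and the 4 members with 3 counts or fewer.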

Other observations

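Of the 4 nearest neighbours of C1qtnf4 and C1qtnf12, 3 were higher in the library labelled siUsf2 3 than in any other library. The share of all genes that are highest in that library was not counted, so nothing about these neighbours is read from this. Ndufs3, a subunit of respiratory complex I beside C1qtnf4, was at 50.4 CPM in siUsf2 3, at 7.46 and 5.09 CPM in siUsf2 1 and 2, and at 3.94 to 7.98 CPM in siControl. Mtch2, a protein of the outer mitochondrial membrane on the other side of C1qtnf4, was at 86.7 CPM in siUsf2 3, at 35.2 and 28.5 CPM in siUsf2 1 and 2, and at 29.1 to 30.9 CPM in siControl. Ube2j2, a ubiquitin-conjugating enzyme beside C1qtnf12, was at 56.5 CPM in siUsf2 3, at 15.6 and 18.3 CPM in siUsf2 1 and 2, and at 12.5 to 22.4 CPM in siControl. B3galt6, on the other side of C1qtnf12, was at 10.3 CPM in siUsf2 3, at 8.66 and 7.97 CPM in siUsf2 1 and 2, and at 10.2 to 13.4 CPM in siControl. With all 6 libraries edgeR called none of the 4, as given above for all neighbours, and the 3 were singled out after their values were seen.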
